A study of Homo sapiens with 6 samples.

Results

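AGR2, AGR3, TFF1 and TFF3 encode small secretory-pathway proteins of luminal epithelium. They were taken from the deposited count table by gene symbol, which gave 4 of 58735 genes. The RNA was from T47D, a long-established line of human luminal breast cancer with estrogen and progesterone receptors. Titles code 3 control libraries as CK and 3 further libraries as CQ, said by the design text to be biological replicates, though not whether separate cultures were grown. The CQ group is called exposed here because the series is titled for fine particulate matter of the air (PM2.5) and the protocol, which has 1 wording for all samples, sets RNA extraction at 48 h of exposure. The labels name no genetic change or further agent for either group of this single line, and no dose.

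The anterior gradient proteins AGR2 and AGR3 belong to the protein disulfide isomerase family, which forms and rearranges disulfide bonds in proteins folding in the endoplasmic reticulum (ER). AGR2 also helps mucins to mature in goblet cells and can be secreted. Trefoil factors are small, cysteine-rich peptides secreted with mucus that protect and help repair epithelia. In breast cancer AGR2, AGR3, TFF1 and TFF3 are known as products of luminal, estrogen receptor-positive cells, and TFF1 is a classical estrogen-induced gene.

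In exposed cells AGR2, AGR3 and TFF3 RNA was lower, and TFF1 was close to undetected in both groups. The call for TFF3, at an adjusted p under 0.05, did not stand in every analysis setting, and those for AGR2 and AGR3 did. AGR2 fell 2.91-fold, AGR3 1.33-fold and TFF3 1.4-fold, and in each of these genes the values of the groups did not overlap. Of 17337 genes tested, 22.1% passed lower, and 26.5% were lower with no overlap between the groups. Counts of the 4 genes together came to 11273 to 12466 in a control library and 3631 to 4599 in an exposed library. AGR2 made up 90.8% to 92.6% of these counts in controls and 83.8% to 83.9% in exposed cells.

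The libraries held 30970218 to 36878525 counts each. Of 17337 genes tested, 43.9% passed in either direction and the median log2 fold change was -0.02. All 8 luminal markers checked were present, with KRT8 at 8154 ± 553 CPM (counts scaled to the size of each library; mean ± SD, n = 3) and ESR1 at 167 ± 12.2 CPM in controls. Their summed level was 18328 to 20362 CPM in controls and 7805 to 9853 CPM in exposed libraries. Most of that sum was the keratins KRT8, KRT19 and KRT18, of which KRT8 and KRT18 overlap each other on opposite strands. Of the 8 markers 5 fell, and EPCAM, CDH1 and GATA3, at log2 fold changes of 0.02, 0.08 and 0.04, did not pass (adjusted p = 0.84, 0.42 and 0.72, edgeR). Basal markers summed to 4.35 to 5.15 CPM in controls and 5.3 to 5.85 CPM in exposed libraries. Most of that was ACTA2, which did not pass (adjusted p = 0.21, edgeR), and KRT5, KRT14, KRT17 and TP63 had too few counts to be tested. The 8 markers of leukocytes, endothelium, fibroblasts and liver summed to 60.7 to 69.1 CPM in controls and 70.9 to 73.9 CPM in exposed libraries. Nearly all of that was the collagen gene COL1A1, which did not pass (adjusted p = 0.065, edgeR), and the hepatocyte gene ALB was at 0 in every library. The part of these markers in the values below was not tested. Whether less RNA per cell or fewer cells carrying it lowered a level cannot be told apart in RNA from whole cultures.

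Both AGR genes lie on the minus strand of chromosome 7, and their upstream sequences are shown because the genes are neighbours that both fell. AGR2 (ENSG00000106541) spans 16791811 to 16833433 and AGR3 (ENSG00000173467) 16859405 to 16881987 in GRCh38, with 26 kb between them. GENCODE 29 lists 7 transcripts with 6 starts for AGR2 and 4 transcripts with 3 starts for AGR3. RefSeq windows (GRCh38.p14) matched 2 of the 4 genes, AGR2 and AGR3. Windows for TFF1 and TFF3 were not used here. The 250 bases before each RefSeq start are printed 5′ to 3′ on the gene's strand, with capitals on letters that match one of the motifs searched.
AGR2 (chr7:16805000-16805249, minus strand): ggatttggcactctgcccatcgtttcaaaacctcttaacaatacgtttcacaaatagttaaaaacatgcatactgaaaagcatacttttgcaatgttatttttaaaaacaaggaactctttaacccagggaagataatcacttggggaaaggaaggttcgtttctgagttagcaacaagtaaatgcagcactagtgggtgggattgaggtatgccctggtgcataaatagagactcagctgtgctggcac
AGR3 (chr7:16881984-16882233, minus strand): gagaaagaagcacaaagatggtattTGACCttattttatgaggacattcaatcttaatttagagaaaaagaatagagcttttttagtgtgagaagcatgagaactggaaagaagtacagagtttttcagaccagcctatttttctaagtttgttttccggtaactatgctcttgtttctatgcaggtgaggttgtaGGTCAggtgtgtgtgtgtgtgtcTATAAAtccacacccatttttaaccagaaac
The AGR2 window lies inside the span that the table gives to AGR2, because other annotated transcripts start farther upstream.

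The windows were searched on both strands for GGTCA, the repeated unit of estrogen response elements, TGTTTAC, a forkhead site, GCGTG, the core bound by the aryl hydrocarbon receptor, TGACNNNGC, the core of the antioxidant response element, and TATAAA, the TATA box. None of these motifs was found in the AGR2 window. The AGR3 window held GGTCA on the gene's strand at -54 to -50, counted from the start, and on the other strand at -225 to -221. It also held TATAAA at -31 to -26, and none of its matches overlapped. Of 35116 windows of this length, 32.6% held GGTCA, 2.98% TGTTTAC, 32.2% GCGTG, 10.9% TGACNNNGC and 10.7% TATAAA on either strand. A match is a description of letters and not of a bound site.

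AGR2 had the most counts of the 4. Control replicates 1 to 3 had 277, 299 and 317 CPM, and exposed replicates 1 to 3 had 101, 98.2 and 107 CPM. Every exposed library was far below every control library, and the exposed libraries lay close together. The log2 fold change was -1.54 ± 0.08 (SE) with an adjusted p of 7.8e-17 (edgeR quasi-likelihood fit over all genes tested, Benjamini-Hochberg, as for every p marked edgeR). Exposed cells thus held 34.3% of the control level. Of all genes tested, 404 (2.33%) had a lower log2 fold change than AGR2.

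AGR3, the close paralog of AGR2, stood at 22.9, 19.7 and 20.5 CPM in controls (replicates 1 to 3) and at 15.1, 15.6 and 16.7 CPM in exposed libraries (replicates 1 to 3). The groups did not overlap, with a gap between them about as wide as the range of the controls. Its log2 fold change was -0.41 ± 0.11 (SE; adjusted p = 0.002, edgeR), which left 75.3% of the control level. A lower log2 fold change was found in 22.6% of tested genes. The processed pseudogene RAD17P1 lies within AGR3 on the same strand and had 0 to 16 counts in a library, against 484 to 854 for AGR3.

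TFF3 (ENSG00000160180, chromosome 21, 42311667 to 42315651, minus strand) is the trefoil factor known as the intestinal one, and was a gene of low level here. Control replicates 1 to 3 had 196, 210 and 174 counts and exposed replicates 1 to 3 had 146, 104 and 136, or 5.25, 6.05 and 4.77 against 4.3, 3.36 and 3.77 CPM. All controls were higher than all exposed libraries, by a margin smaller than the range within either group. The log2 fold change was -0.49 ± 0.17 (SE; adjusted p = 0.021, edgeR). That call did not stand in every setting: DESeq2 gave an adjusted p of 0.057. Without control replicate 2, exposed replicate 2 or exposed replicate 3, edgeR gave adjusted p values of 0.1, 0.089 and 0.063, in a range over all settings of 0.016 to 0.1.

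TFF1 (ENSG00000160182, chromosome 21, 42362282 to 42366594, minus strand) was at 0 counts in control replicates 1 and 2 and at 4 in control replicate 3, and exposed replicates 1 to 3 had 3, 2 and 2 counts. A count of 0 in these libraries allows a level of up to 3 counts, or 0.0803 to 0.0969 CPM, a limit that covers counting error only. The mean counts of both groups were under 3, and TFF1 did not pass the count filter that genes had to pass to be tested. It therefore did not enter the test, no fold is given, and a difference was not detectable at this depth. TFF2, the trefoil factor of gastric mucus whose gene lies between TFF3 and TFF1, had 0 counts in 5 libraries and 2 in exposed replicate 2. Of the trefoil genes, TFF3 alone could be tested.

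**Figure D1:**
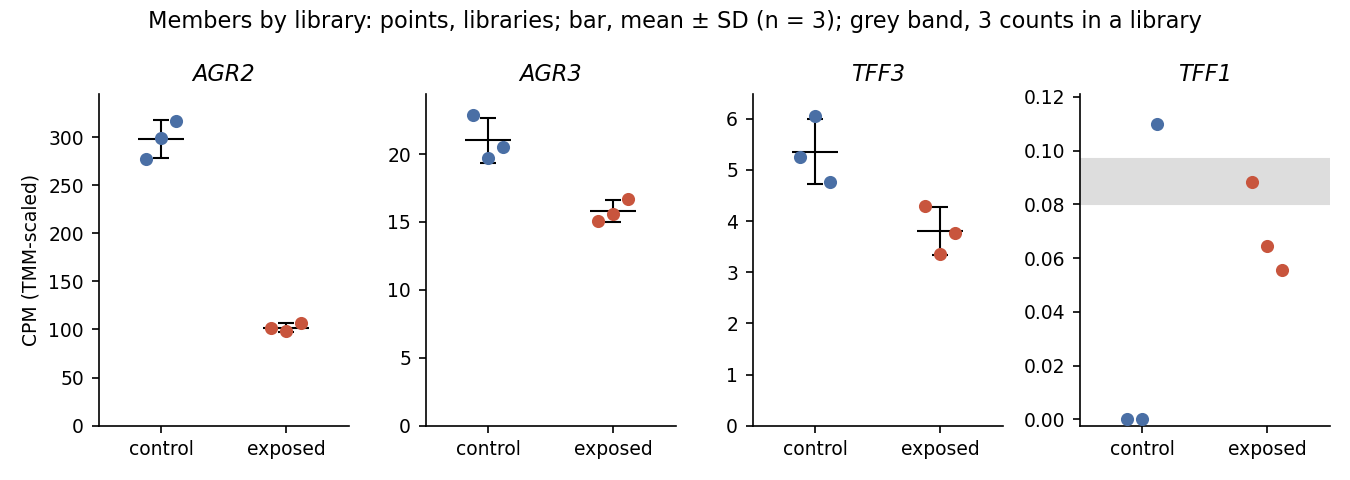
CPM of AGR2, AGR3, TFF3 and TFF1 (y axis, a scale of its own in each panel) in control and exposed libraries; points are libraries, and the bar with whiskers is the mean ± SD (n = 3), left out for TFF1. AGR2, AGR3 and TFF3 points do not overlap between groups, while TFF1 points lie about the grey band that marks 3 counts in a library.

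Levels of different genes were compared per kilobase of the length in the table, which equals the union of GENCODE 29 exons (2845 bases for AGR2, 1160 for AGR3, 551 for TFF1 and 1168 for TFF3). Controls had 105 ± 6.95 CPM per kb of AGR2, 18.1 ± 1.44 of AGR3 and 4.59 ± 0.55 of TFF3 (SD, n = 3). Exposed cells had 35.9 ± 1.58, 13.6 ± 0.686 and 3.26 ± 0.403 CPM per kb of AGR2, AGR3 and TFF3. The order AGR2, AGR3, TFF3 was thus the same in both groups, each step larger than the spread, with TFF1 last at 0.199 CPM per kb or less in any library. On this scale AGR2 stood 5.78-fold above AGR3 in controls and 2.63-fold above it in exposed cells, whereas AGR3 stood 3.95-fold and 4.18-fold above TFF3.

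Ratios of counts within a library compare the genes free of the scaling between libraries. Each AGR3 count came with 12.1, 15.2 and 15.5 AGR2 counts in controls (replicates 1 to 3) and with 6.67, 6.28 and 6.41 in exposed libraries (replicates 1 to 3). The groups were well apart, and the exposed ratios nearly equal. The log2 ratio differed by -1.14 (3.82 ± 0.2 in controls, 2.69 ± 0.04 in exposed libraries, SD, n = 3 each; exact two-sided permutation p = 0.1, adjusted p = 0.15 over 3 ratios). With 3 libraries a group, an exact permutation test cannot go below p = 0.1. The log2 ratio of AGR2 to TFF3 differed by -1.05, also without overlap (5.8 ± 0.22 and 4.74 ± 0.17; exact permutation p = 0.1, adjusted p = 0.15). That of AGR3 to TFF3 was 1.97 ± 0.24 and 2.06 ± 0.21, with overlapping groups (exact permutation p = 0.5, adjusted p = 0.5). Its difference of 0.08 turned to -0.05 without control replicate 2.

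**Figure D2:**
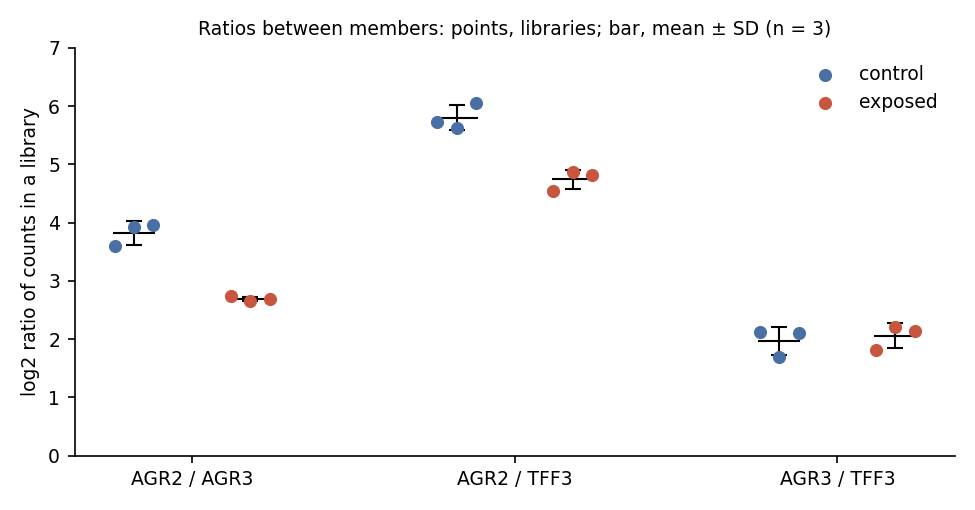
The log2 ratio of counts of 2 genes within a library (y axis) for AGR2 to AGR3, AGR2 to TFF3 and AGR3 to TFF3 (x axis); points are libraries and the bar with whiskers is the mean ± SD (n = 3 per group). Both ratios with AGR2 are lower in every exposed library than in any control, and the ratio of AGR3 to TFF3 overlaps between groups.

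Of 6 tested genes within 500 kb of the AGR pair, 3 fell and 2 rose, where 43.9% of all genes tested passed in either direction. TSPAN13, a tetraspanin gene 7.28 kb beyond the 3′ end of AGR2, fell by 0.46 ± 0.07 (log2, SE; adjusted p = 4.8e-06, edgeR). AHR, the aryl hydrocarbon receptor gene, lies 34.4 kb beyond the 5′ end of AGR3 on the other strand and rose from 9.3 ± 0.988 to 13.4 ± 1.13 CPM (n = 3 per group), a log2 change of 0.53 ± 0.12 (SE). Farther off, ISPD, which acts in the glycosylation of dystroglycan, was at -1.50 and SOSTDC1, a secreted antagonist of BMP and Wnt signals, at -0.95, both with under 3 CPM in controls. ANKMY2 rose by 0.45 on the log2 scale.

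Around the trefoil genes 12 neighbours were tested, of which 3 rose, 1 fell and 8 did not pass, so that the share called was not above the 43.9% of all genes. ABCG1, a sterol exporter 14.4 kb from TFF3, rose by 0.59 ± 0.12 and the zinc finger gene ZBTB21 by 0.45 ± 0.11 (log2, SE). WDR4, a subunit of a tRNA methyltransferase, fell by 0.87 ± 0.10. SLC37A1, a sugar-phosphate transporter, rose by 0.25. That call ended under DESeq2 (adjusted p = 0.05) and with the replicate number as a block (adjusted p = 0.074, edgeR). It also ended without either control replicate 1 or 3 or exposed replicate 1 or 2 (edgeR adjusted p from 0.076 to 0.21). Over all settings its adjusted p ran from 0.0098 to 0.21. TMPRSS3, a transmembrane serine protease gene 5.24 kb from TFF1, was at -0.65 ± 0.28 and did not pass (adjusted p = 0.061, edgeR).

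**Figure D3:**
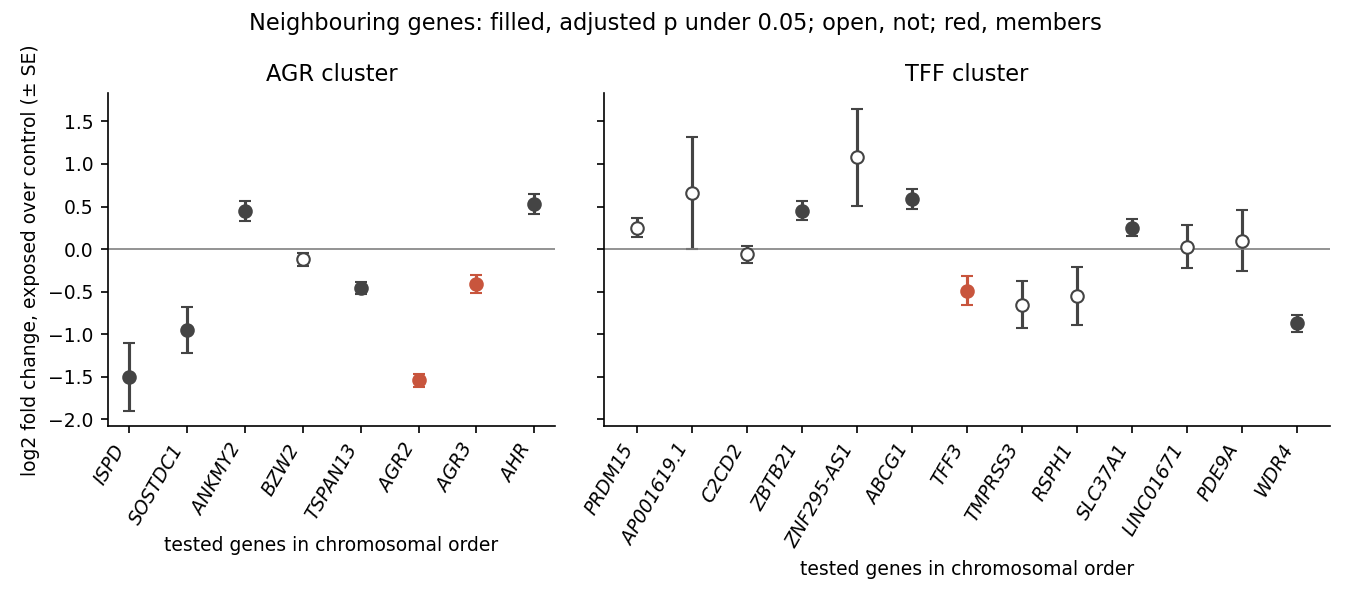
The log2 fold change of exposed over control (y axis; whiskers, SE from edgeR) of tested genes within 500 kb of the AGR genes (left) and of the trefoil genes (right), in chromosomal order (x axis). Filled points passed at an adjusted p under 0.05, and red points are AGR2, AGR3 and TFF3; genes beside them lie on both sides of 0.

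TXNDC12, the ER thioredoxin also named AGR1 and the nearest relative of the AGR proteins, was higher in exposed cells. Its level was 6.3, 6.65 and 7.22 CPM in the controls and 8.33, 9.95 and 9.18 CPM in the exposed libraries, without overlap. It rose by 0.44 ± 0.14 on the log2 scale (SE; adjusted p = 0.0088, edgeR). TXNDC12 overlaps BTF3L4, which has more counts, on the other strand and KTI12 on the same strand. Reads of the overlap with BTF3L4 cannot be told apart because the strand setting is not known here. Strand would not separate those of KTI12. Of 17 tested genes of the protein disulfide isomerase family, AGR2 and AGR3 not counted, 7 rose, 2 fell and 8 did not pass, with a median log2 fold change of 0.10. ERP29, an ER protein that helps secretory cargo along, rose from 268 ± 12.8 to 416 ± 36.1 CPM, and the disulfide isomerase PDIA4 from 156 ± 8.11 to 227 ± 5.78 CPM (n = 3 per group). DNAJC10, an ER reductase, rose by 0.39 on the log2 scale, and the membrane-bound TMX1 fell by 0.47. Of all genes tested, 21.8% rose and 22.1% fell.

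Among 14 tested transcription factors known to act on these genes or on the exposure response, 7 rose, 5 fell and 2 did not pass (median 0.16), against 21.8% higher and 22.1% lower over all genes tested. The estrogen receptor gene ESR1 was at -1.31 ± 0.08 (log2, SE), against -1.54 for AGR2. XBP1, a factor of the unfolded protein response, fell by 0.68 ± 0.08, the secretory-cell factor SPDEF by 0.44 ± 0.08 and the pioneer factor FOXA1 by 0.27 ± 0.07. GATA3, a luminal factor, was at 0.04 ± 0.08 and did not pass (adjusted p = 0.72, edgeR). KLF4, an epithelial differentiation factor, rose by 0.86 ± 0.10, and NFE2L2, which encodes the oxidative stress factor NRF2, by 0.75 ± 0.09. Whether any of these factors acted on AGR2, AGR3 or TFF3 was not tested.

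Of 11 tested genes for binding partners and candidate receptors of AGR and trefoil proteins, 1 rose, 4 fell and 6 did not pass (median -0.22). Their shares were 9.09% higher and 36.4% lower, and those over all genes tested 21.8% and 22.1%. The 4 that fell were EGFR, RUVBL2, TMED2 and the mucin gene MUC2, and none of these calls stood in every setting. The one that rose was MUC1, a membrane mucin, from 519 ± 58.8 to 726 ± 53 CPM (n = 3 per group). EGFR, the growth factor receptor whose delivery to the surface is known to need AGR2, fell by 0.54 ± 0.17, a call that ended without control replicate 2 (adjusted p = 0.084, edgeR) or exposed replicate 3 (adjusted p = 0.078; range over all settings 0.0029 to 0.084). RUVBL2, an ATPase that binds AGR2, was at -0.24, and TMED2, a cargo receptor that binds AGR2 in the ER, at -0.22. Their calls ended without exposed replicate 3 (adjusted p = 0.075 and 0.051, edgeR), and that of RUVBL2 also without exposed replicate 2. That of TMED2 also ended without control replicate 1, control replicate 3 or exposed replicate 1. With the replicate number as a block it ended too (adjusted p = 0.058, edgeR). Over all settings the adjusted p values of RUVBL2 and TMED2 ran from 0.0064 to 0.079 and from 0.0027 to 0.13. LYPD3 and DAG1, surface proteins that bind AGR proteins, were at 0.16 and -0.13 and did not pass (adjusted p = 0.16 and 0.14, edgeR). LINGO2, a reported TFF3 receptor, and GKN2, a stomach protein that pairs with TFF1, were at 0 counts in all libraries.

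Other secreted products of luminal cells also moved both ways, 2 of 16 tested higher, 5 lower and 9 that did not pass (median -0.18). These shares of 12.5% and 31.2% stand beside 21.8% higher and 22.1% lower over all genes tested. PIP, the prolactin-induced protein, fell 2.64-fold from 188 ± 8.55 to 70.9 ± 12.7 CPM, IGFBP5, a binding protein of insulin-like growth factors, 7.43-fold from 706 ± 62.5 to 95 ± 15 CPM, and the chemokine CXCL12 5.83-fold (n = 3 per group). NUCB2, a secreted calcium-binding protein, rose 2.13-fold. AZGP1, a zinc-binding glycoprotein, was at 0.08 ± 0.08 (log2, SE) and did not pass. Of 12 estrogen-induced genes 11 fell, among them PGR, the progesterone receptor gene, at -1.46 ± 0.08, the cell cycle gene CCND1 at -1.34 ± 0.08 and IGFBP4 at -0.93 ± 0.08. PDZK1 at -3.36 ± 0.24 and MYB at -2.27 ± 0.15 fell further than AGR2 (-1.54), and all other genes of the list fell less than AGR2. CCND1 overlaps LTO1 on the other strand. The list's median was -0.89, with AGR2 below it and AGR3 and TFF3 above it.

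Markers of goblet cells, in which AGR2 and TFF3 are abundant in the gut, were scarce. Their summed level was 4.74 to 7.71 CPM in controls and 1.03 to 1.36 CPM in exposed libraries, and most of that sum was SPINK4. CLCA1 was at 0, and 2 of 6 could be tested. These were SPINK4 and MUC2, and both fell, where 22.1% of all genes tested fell. SPINK4, a protease inhibitor of goblet cells, fell from 5.01 ± 1.26 to 0.791 ± 0.218 CPM (n = 3 per group), or by 2.64 ± 0.25 on the log2 scale (SE; adjusted p = 3e-10, edgeR). It overlaps BAG1, which has more counts, on the other strand. Reads of the overlap cannot be told apart because the strand setting is not known here, which also bears on the summed level. The mucin gene MUC2 was at 0.629 ± 0.127 and 0.237 ± 0.0367 CPM. Its call (adjusted p = 0.022, edgeR) ended under DESeq2 (adjusted p = 0.069) and without control replicate 2 or 3 or exposed replicate 1 or 2. Over the settings that tested MUC2 its adjusted p ran from 0.022 to 0.088. The filter of at least 1 CPM in 3 libraries left it out.

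**Figure D4:**
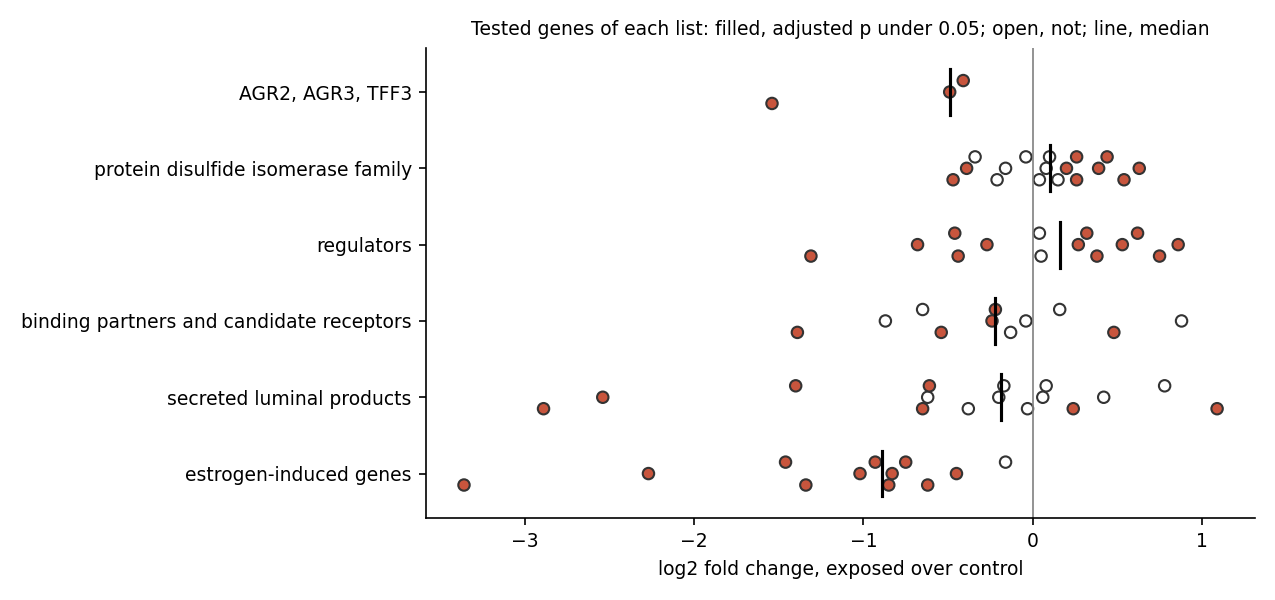
The log2 fold change of exposed over control (x axis) of the tested genes of 6 lists (rows); filled points passed edgeR's test at an adjusted p under 0.05, open points did not, and the vertical line is the list's median. The median of the disulfide isomerase family is 0.10 and that of estrogen-induced genes -0.89.

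Of 9342 genes averaging 10 CPM or more, the patterns over the 6 libraries most like that of AGR2 were those of UHRF1, FBXO9 and P2RY2. Their root mean square distances from it, on log2 CPM centred on each gene's mean, were 0.0525, 0.0544 and 0.0614. For AGR3 the nearest were ALCAM, CDCA2 and ADCY1 (0.0328 to 0.0403), and for TFF3 they were HSPB1, IMP3 and ACAP3 (0.0385 to 0.0572). Pearson's r with the gene they were matched to lay between 0.975 and 0.999. All these values share the same libraries and are dominated by the step between the groups, so they describe likeness of level changes only.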

How the data were processed

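The authors deposited raw read counts per gene for the 6 libraries, with GRCh38 as the build per the submitters' processing notes. Of the aligner, the counter and its strand setting, nothing was given in the sources used here. Extraction was with TRIzol and library preparation with a NEBNext Ultra kit, per the labels' protocols. The lengths are the table's column, deposited by the authors in bases; coordinates and lengths of the 4 genes match GENCODE 29.

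Testing used edgeR 4.0.16 in R 4.3.3. Of all genes, filterByExpr (count 10, total 15) left 17337, TMM scaling factors were 0.948 to 1.04, and a robust quasi-likelihood fit without a block set exposed against control. The call was a Benjamini-Hochberg adjusted p under 0.05 over all genes tested. The SE is the log2 fold change over the square root of F. Ratios used counts plus 0.5 and exact permutation tests. Chi-square per degree of freedom between libraries of a group was 7.11 to 14.9, and none were identical. The p-values reflect the spread between these samples, which may be technical.

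The members and lists were chosen with earlier results of these data known. The naming rule took the 4 genes, TFF2 and TXNDC12; ESR1, FOXA1, GATA3, SPDEF, XBP1 and AHR; up to 4 called genes per other list by adjusted p; called neighbours within 500 kb; and the 3 most similar genes for each. Not all of these are described, and other genes were picked after seeing their values. TFF1 had too few counts for its planned ratios, so ratios to TFF3 were formed after seeing the data. Alternatives were DESeq2 size factors, no filter or at least 1 CPM in 3 libraries, DESeq2 1.42.0, limma-voom (limma 3.58.1), the replicate number as a block, and leaving out each library.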

Additional observations from a re-analysis of the deposited data

How the results depend on the processing

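The number of the 4 genes that passed was 3 with DESeq2 type size factors, without a filter, with a stricter filter, in limma-voom and with the replicate block, and 2 in DESeq2, where TFF3 had a log2 fold change of -0.48 (adjusted p = 0.057). Leaving out 1 library gave 2 to 3 genes, log2 fold changes of -1.59 to -1.50 for AGR2, -0.45 to -0.34 for AGR3 and -0.58 to -0.39 for TFF3, and differences in the log2 ratio of -1.25 to -1.07 for AGR2 to AGR3, -1.14 to -0.93 for AGR2 to TFF3 and -0.05 to 0.21 for AGR3 to TFF3. AGR2 and AGR3 passed, lower, under every one of these alternatives. Without division by gene length, AGR2 stood 14.2-fold rather than 5.78-fold above AGR3 in controls. Nothing beyond the replicate number was given to pair libraries across the groups. Same-numbered libraries had correlations of their deviations from the group means of -0.128, -0.122 and 0.00474, and unlike-numbered libraries of -0.0992 to 0.207. With 3 libraries a group, these values cannot decide whether same-numbered libraries were handled together. With the replicate block 6779 rather than 7610 genes passed, 41 rather than 44 of the listed genes and 8 rather than 9 neighbours; TFF3 had an adjusted p of 0.04, and the ratio of AGR2 to AGR3 an exact p of 0.25, the smallest that 3 pairs allow. The block also ended the calls of TMED2 (adjusted p = 0.058) and SLC37A1 (0.074). Alternatives were run for 38 further genes, those of the fixed lists and neighbours that the naming rule took: 434 of their values kept direction and call and 20 kept direction but no longer passed. The most similar genes, PDZK1, and genes that did not pass and that the rule did not take, were not rerun. Depth limits TFF1 and TFF2, whose counts were too few for any comparison.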
